A study of Mus musculus with 45 samples.

Results

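The immediate early genes of the AP-1 and EGR families were followed in mouse hearts during and after a transient overexpression of the receptor tyrosine kinase ERBB2 in cardiomyocytes. The set held 10 genes taken by symbol, 4 of the Fos family (Fos, Fosb, Fosl1, Fosl2), 2 of the Jun family (Jun, Junb), 3 early growth response genes (Egr1, Egr2, Egr3) and Atf3. All 10 were found among the 19432 genes listed in each of 2 deposited tables. All 10 also passed the filter on low values, so that they stood among 15375 genes tested in the first table and 15533 in the second.

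RNA was sequenced from perfused, frozen and powdered whole hearts, 45 libraries in 12 groups. OE hearts carried the ERBB2 transgene and WT hearts did not. Each genotype had an injured arm, labelled MI, and a sham arm. T1 hearts were collected while ERBB2 was overexpressed, T2 hearts 2 weeks after that period and T3 hearts 4 weeks after it. The groups were OE MI, OE sham, WT MI and WT sham at each time, with 4 libraries in 9 groups and 3 in the remaining 3, namely OE sham at T3 and both MI groups at T2. The sources used here give neither the driver of the transgene nor the strain, sex and age of the mice or the time between injury and collection. They do not say whether the libraries of a group came from separate animals, so p-values measure the spread between libraries. T1 libraries were normalized in a table of their own, and no test was made across it and the table of T2 and T3.

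Immediate early genes are switched on within minutes of a growth factor, stretch or stress signal without new protein synthesis, and their transcripts are short-lived. A receptor such as ERBB2 acts on them through the RAS and ERK cascade, which phosphorylates ternary complex factors bound with SRF at CArG boxes and activates CREB family proteins at cyclic AMP response elements (CRE). Fos and Jun proteins pair into the AP-1 dimer, and EGR proteins are zinc finger activators that bind GC-rich sites and induce their own corepressors, the NAB proteins. In heart muscle the same genes answer haemodynamic load and ischaemia.

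Promoter sequences are shown for 3 members as examples of the motifs found, Fos and Fosb of the AP-1 family and Egr2 of the EGR family. They are RefSeq promoter windows of GRCm38.p6, 250 bases before to 50 after the annotated start, in the gene's own direction. Capitals mark matches on either strand to a CArG box, to the CRE core TGACG or to the EGR site GCGNGGGCG.
Fos, chr12:85473640-85473939, plus strand: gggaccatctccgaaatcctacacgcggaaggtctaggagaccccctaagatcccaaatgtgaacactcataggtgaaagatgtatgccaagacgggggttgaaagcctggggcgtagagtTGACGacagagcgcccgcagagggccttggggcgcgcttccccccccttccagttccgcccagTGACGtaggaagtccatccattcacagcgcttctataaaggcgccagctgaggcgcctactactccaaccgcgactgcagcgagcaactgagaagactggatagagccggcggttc
Fosb, chr7:19309996-19310295, minus strand: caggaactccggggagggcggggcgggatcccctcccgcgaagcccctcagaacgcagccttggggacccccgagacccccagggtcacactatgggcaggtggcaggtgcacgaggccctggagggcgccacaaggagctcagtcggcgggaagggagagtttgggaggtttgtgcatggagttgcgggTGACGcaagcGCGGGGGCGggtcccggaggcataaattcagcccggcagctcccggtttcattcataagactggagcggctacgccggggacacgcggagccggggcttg
Egr2, chr10:67537619-67537918, plus strand: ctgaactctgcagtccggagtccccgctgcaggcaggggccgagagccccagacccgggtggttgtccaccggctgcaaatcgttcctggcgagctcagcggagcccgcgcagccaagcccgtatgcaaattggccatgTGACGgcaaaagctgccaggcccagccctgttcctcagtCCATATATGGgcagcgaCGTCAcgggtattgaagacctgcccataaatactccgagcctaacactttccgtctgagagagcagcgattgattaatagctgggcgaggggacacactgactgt

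RefSeq windows were matched for 7 of the 10 members, and Fosl1, Egr1 and Egr3 are named only. Egr2 has several annotated starts. The Egr2 window shown held a CArG box 72 to 63 bases before the start, with a CRE core on either side of it, and 1 of its other windows held none of these motifs. The Fos window held the CRE core at 2 places and the Fosb window held it once, beside an EGR site that began 50 bases before the start. The CRE core was also present in the Junb window, 106 to 102 bases before the start, and in the Atf3 window, 7 to 3 bases before it. A further EGR site lay in the Fosl2 window, and the Jun window held none of the motifs searched. Over 32817 promoter windows of the same length, a CArG box was present in 1.63%, the CRE core TGACG in 20.8% and the EGR site in 5.56%. The full CRE TGACGTCA (1.79% of windows) and the AP-1 site TGANTCA (7.81%) had no match in any member window. The CRE core overlaps the full CRE. These are matches of letters in 300 bases and not measured binding.

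In the GENCODE M21 annotation of GRCm38, Egr1 lies at chr18:34859823-34864984, Egr2 at chr10:67535475-67542188 and Egr3 at chr14:70077203-70082614, all on the plus strand and with no overlapping gene. Fos lies at chr12:85473890-85477273 and Fosb at chr7:19302696-19310051, also without an overlapping gene, and Fosl2 at chr5:32135801-32157842. Fosl1, at chr19:5447547-5455946, overlaps Ccdc85b on the opposite strand. Junb, at chr8:84974484-84978718, overlaps Prdx2, and Jun, at chr4:95049034-95052222, overlaps the antisense gene Junos. Atf3, at chr1:191170296-191218039, overlaps Gm24748. The sources used here do not say whether reads were counted by strand, so reads of these 4 genes and their opposite-strand partners may not have been told apart. In OE sham against WT sham hearts at T1, the log2 fold changes were -0.41 ± 0.07 for Prdx2, 0.17 ± 0.12 for Ccdc85b and -1.08 ± 0.35 for Junos. Their limma adjusted p were 1.26e-04, 0.254 and 0.0197 (± SE). The part of these partners in the members' results was not tested.

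Total reads recovered per library ran between 14199741 and 19015856. Erbb2 itself checked the labels: its normalized counts at T1 were 769 to 2401 in OE MI hearts, 770 to 2436 in OE sham hearts, 201 to 303 in WT MI hearts and 243 to 250 in WT sham hearts. The excess of Erbb2 over WT in sham hearts was 2.67 ± 0.34 on the log2 scale at T1 and 0.48 ± 0.09 at T2 (limma, SE, adjusted p = 2.01e-05 and 2.59e-04), and it was 0.22 ± 0.10 at T3 (adjusted p = 0.141). The markers of cardiomyocytes, the cell type that defines heart muscle, were abundant in every group. In whole-heart RNA, fewer cells of a type and less RNA per cell cannot be told apart.

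During overexpression the EGR genes stood among the most raised transcripts of uninjured hearts, and most AP-1 genes rose with them by smaller amounts. In OE sham against WT sham hearts at T1, 8 of the 10 members rose and none fell at an adjusted p under 0.05, where 24.0% of all genes tested were called higher and 23.3% lower. The median log2 fold change was 1.31 over the 10 members and 0.01 over all genes tested. Egr2, Egr3 and Egr1 ranked 18, 29 and 37 from the top among 15375 genes, and Fos ranked 236.

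Egr1, the serum-responsive zinc finger factor best known of its family, had 3037, 2585, 4518 and 2324 normalized counts in OE sham hearts, against 239, 438, 250 and 205 in WT sham hearts. Egr2, known for its part in myelination and hindbrain patterning, had 241, 298, 302 and 121 in OE sham hearts, against 14.1, 12.7, 7.96 and 10.6 in WT sham hearts. Egr3, which shares the DNA-binding domain of the family, had 172, 258, 240 and 156 in OE sham hearts, against 19.2, 10.1, 14.8 and 17.0 in WT sham hearts. For each of the 3 genes every OE sham heart lay above every WT sham heart. The share of all genes tested whose groups did not overlap was not counted, here or in the comparisons below. Lack of overlap therefore only describes the printed values and adds no support to a call. The log2 fold changes were 3.47 ± 0.52 for Egr1, 4.23 ± 0.54 for Egr2 and 3.67 ± 0.51 for Egr3, with limma adjusted p of 8.39e-05, 1.82e-05 and 3.23e-05. Per kilobase of exon, Egr1 was the most abundant member in OE sham hearts, at 695 normalized counts, against 63.1 in WT sham hearts. By the same measure Egr2 stood at 70.8 in OE sham hearts and 3.34 in WT sham hearts.

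Fos, the founding partner of AP-1, had 176, 176, 294 and 86.4 normalized counts in OE sham hearts, against 33.4, 77.3, 23.9 and 34.98 in WT sham hearts. The groups did not overlap, although the lowest OE sham heart (replicate 4) lay close to the highest WT sham heart. Junb, a Jun protein that is a weaker activator than Jun and often opposes it, had 823, 1036, 1086 and 641 in OE sham hearts, against 307, 374, 407 and 383 in WT sham hearts. Fosl2 (FRA-2) had 891, 1211, 1126 and 645 in OE sham hearts, against 500, 456, 496 and 485 in WT sham hearts. Both were again higher in every OE sham heart. Replicate 4 was the lowest OE sham heart for all 10 members, and without it 9 members were called. Fosl1 (FRA-1), which like Fosl2 lacks the strong activation domain of Fos, averaged 38.3 ± 8.24 in OE sham hearts and 15.5 ± 1.98 in WT sham hearts (SD, n = 4 each).

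On the log2 scale the rises were 2.10 ± 0.52 for Fos, 1.26 ± 0.31 for Junb, 1.23 ± 0.27 for Fosl1 and 0.96 ± 0.26 for Fosl2, with limma adjusted p between 0.00162 and 0.00698. Fosb averaged 27.4 ± 7.21 normalized counts in OE sham hearts and 10.2 ± 3.91 in WT sham hearts (SD, n = 4 each), a log2 fold change of 1.36 ± 0.46 with adjusted p = 0.0223. The Fosb call was lost, with log2 values of 1.20 to 1.32 and adjusted p of 0.0507 to 0.0627, without WT sham replicate 3 or 4 or OE sham replicate 1, 2 or 3.

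Jun and Atf3 were the 2 members not called. Jun, the strongest activator of its family, had 1384, 1307, 1533 and 1088 normalized counts in OE sham hearts, against 1306, 1459, 1018 and 997 in WT sham hearts. The groups overlapped (log2 fold change 0.16 ± 0.21, adjusted p = 0.554). Atf3, a stress-inducible repressor that dimerizes with Jun proteins, had 223, 263, 196 and 69.6 in OE sham hearts, against 105, 83.6, 64.8 and 56.2 in WT sham hearts. OE sham replicate 4 fell within the WT range, and the log2 fold change of 1.15 ± 0.61 had an adjusted p of 0.137. Without that library it was 1.57, with adjusted p = 0.0497. When values were scaled to library totals, which put the median of all genes at 0.31 in place of 0.01, Jun was called at 0.46 and Atf3 at 1.45.

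**Figure D1:**
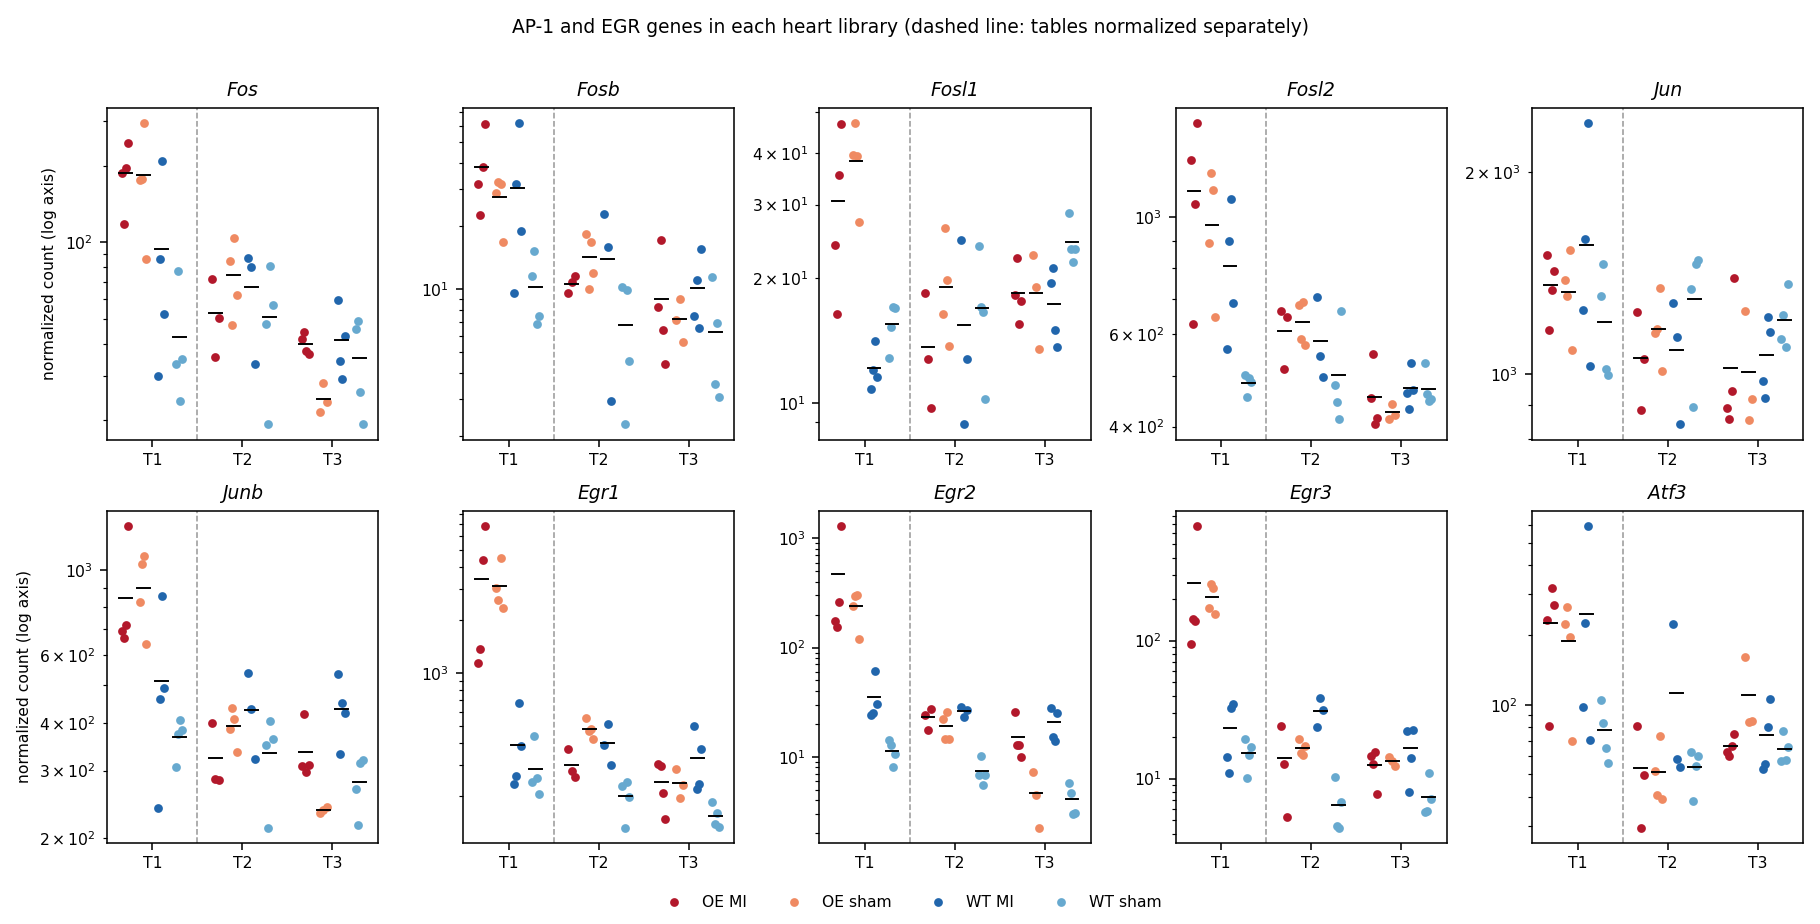
Normalized counts of the 10 members in each library (log axis) by time, with 1 point per heart library and a bar at the group mean, for OE MI, OE sham, WT MI and WT sham hearts. The dashed line parts T1, normalized in its own table, from T2 and T3. Egr1, Egr2 and Egr3 at T1 show the widest gap, with every OE sham heart above every WT sham heart.

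In injured hearts the EGR genes rose with overexpression as well, while most AP-1 genes did not pass the test. In OE MI against WT MI hearts at T1, 4 of 10 members rose (Egr1, Egr2, Egr3 and Fosl1) and none fell, where 14.7% of all genes tested were called higher and 15.2% lower. Egr1 had 1129, 1356, 4402 and 6818 normalized counts in OE MI hearts, against 234, 258, 669 and 385 in WT MI hearts. Egr2 had 174, 154, 259 and 1297 in OE MI hearts, against 24.0, 25.1, 60.7 and 30.4 in WT MI hearts. Egr3 had 95.1, 144, 139 and 675 in OE MI hearts, against 14.4, 10.9, 32.5 and 34.6 in WT MI hearts. No OE MI heart overlapped the WT MI hearts for these genes, and OE MI replicate 4 was the highest heart for each of them. The log2 fold changes were 2.88 ± 0.52, 3.21 ± 0.54 and 3.14 ± 0.51 for Egr1, Egr2 and Egr3 (limma adjusted p = 8.73e-04, 4.97e-04 and 3.21e-04). Without OE MI replicate 4 those of Egr2 and Egr3 were 2.52 and 2.53 and both stayed called.

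Fosl1 averaged 30.6 ± 13.3 normalized counts in OE MI hearts and 12.1 ± 1.42 in WT MI hearts (SD, n = 4 each; log2 fold change 1.17 ± 0.27, limma adjusted p = 0.00419). Fos had 187, 118, 195 and 246 in OE MI hearts, against 29.9, 86.3, 209 and 52.4 in WT MI hearts. The groups overlapped through WT MI replicate 3, which was the highest WT MI heart for 9 of the 10 members, all but Egr3. Fos and Junb gave 1.29 ± 0.52 and 0.80 ± 0.31 (adjusted p = 0.0749 and 0.0658). Without WT MI replicate 3 they were 1.79 and 1.09 (adjusted p = 0.00988 and 0.00946), and 6 members were called. Leaving out OE MI replicate 4 as well, a choice made after seeing the data, gave 1.64 for Fos and 0.86 for Junb and again 6 calls. Fosl2 gave 0.45 ± 0.26 (adjusted p = 0.221), and 0.70 with adjusted p = 0.0288 without OE MI replicate 2. Fosb, Jun and Atf3 gave 0.53, -0.13 and 0.20 (adjusted p of 0.42 to 0.846), and the direction of Jun and Atf3 changed with the setting.

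**Figure D2:**
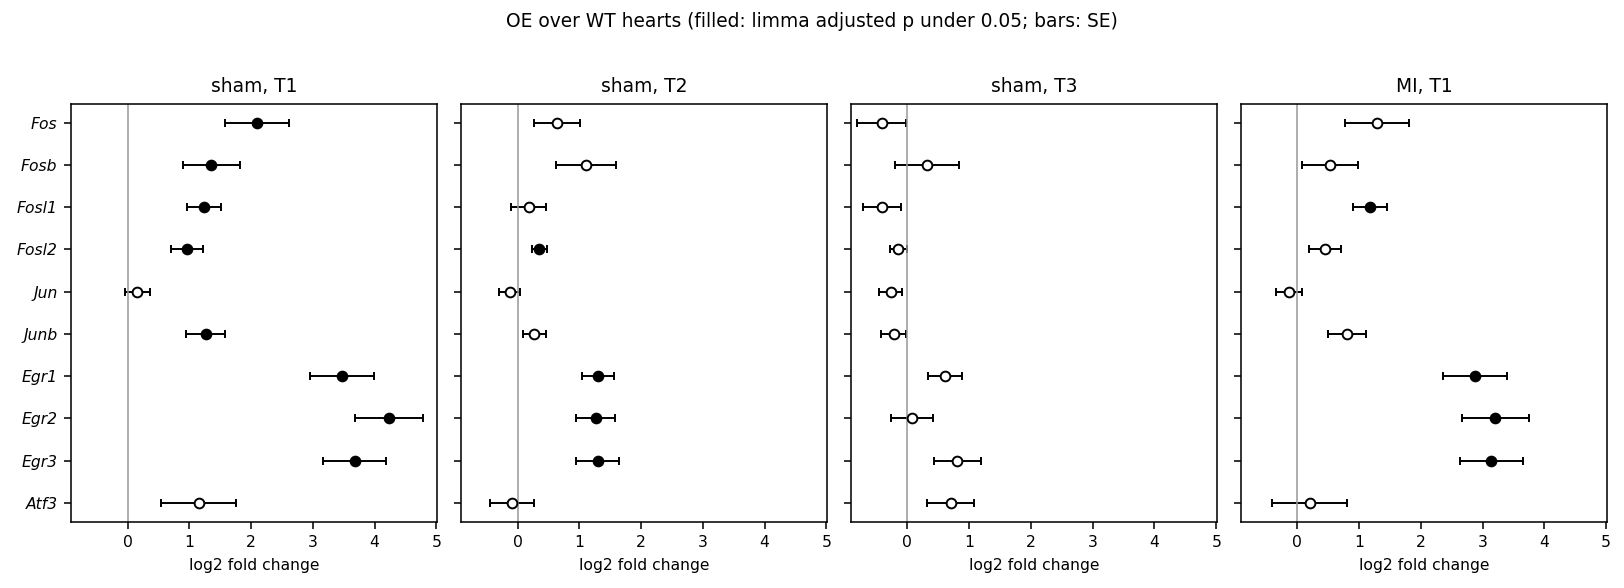
Log2 fold changes of OE over WT hearts for each member (points, with SE bars), in sham hearts at T1, T2 and T3 and in MI hearts at T1; filled points have a limma adjusted p under 0.05. The EGR genes lie above 2.8 in both T1 panels, near 1.3 in sham hearts at T2 and below 0.9 at T3, where no point is filled.

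Injury itself gave no member call at T1. In WT MI against WT sham hearts, 0 of 10 members passed in limma, where 5.80% of genes tested were called in either direction. At an unadjusted p under 0.05 there were 3 (Fosb, Fosl2 and Egr2), in edgeR 0 and in DESeq2 2. No share of all genes is given for counts at an unadjusted p, here or below, so none of them is read as a result. Fosb averaged 30.5 ± 22.8 normalized counts in WT MI hearts and 10.2 ± 3.91 in WT sham hearts (log2 fold change 1.25 ± 0.46, adjusted p = 0.106). Egr2 averaged 35.1 ± 17.4 in WT MI hearts and 11.3 ± 2.67 in WT sham hearts (SD, n = 4 each). Its log2 fold change was 1.47 ± 0.54 with adjusted p = 0.115, and it was called when only the groups compared entered the fit. Fosb was called in DESeq2 (1.59, adjusted p = 0.0301) and in limma without WT MI replicate 1 (1.68, adjusted p = 0.0197). In the authors' deposited table Fosb had a log2 fold change of 1.59 with adjusted p = 0.0389, and Fosl2 0.739 with adjusted p = 0.0498.

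In OE MI against OE sham hearts at T1, 0 of 10 members passed in limma, edgeR and DESeq2, where limma called 0.00650% of genes tested. At an unadjusted p under 0.05 there were 0 members. The difference between the genotypes' injury responses at T1 likewise gave 0 members in each tool, where limma called 0.0911% of genes tested. It also gave 0 at an unadjusted p under 0.05. OE MI hearts varied widely for the EGR genes, with a mean of 3426 ± 2709 normalized counts for Egr1 and 471 ± 552 for Egr2 (SD, n = 4), against 3116 ± 980 and 240 ± 84.5 in OE sham hearts.

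In uninjured hearts 2 weeks after overexpression the EGR genes were still higher, by less. In OE sham against WT sham hearts at T2, 4 of 10 members rose (Egr1, Egr2, Egr3 and Fosl2) and none fell, where 11.8% of genes tested were called higher. Egr1 had 555, 468, 481 and 419 normalized counts in OE sham hearts, against 228, 131, 238 and 195 in WT sham hearts. Egr3 had 19.3, 15.4, 14.8 and 17.1 in OE sham hearts, against 10.2, 4.53, 4.42 and 6.82 in WT sham hearts. Egr2 had 22.2, 14.5, 25.7 and 14.5 in OE sham hearts, against 6.80, 10.2, 5.52 and 6.82 in WT sham hearts. The groups did not overlap for any of the 3 genes. The log2 fold changes were 1.30 ± 0.25, 1.30 ± 0.35 and 1.27 ± 0.32 for Egr1, Egr3 and Egr2 (limma adjusted p = 5.74e-04, 0.00741 and 0.00402). Egr2 and Egr3 rested on few reads at T2 and T3, down to 2 and 4 in the lowest libraries.

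Fosl2 at T2 averaged 632 ± 61.4 normalized counts in OE sham hearts and 500 ± 112 in WT sham hearts (SD, n = 4 each), and the groups overlapped through WT sham replicate 4. Its log2 fold change was 0.36 ± 0.12 with limma adjusted p = 0.0369. The call was lost, with adjusted p of 0.071 to 0.147 and log2 values of 0.27 to 0.34, without WT sham replicate 1, 2 or 3 or OE sham replicate 1 or 3. It was also lost, at an unchanged fold, with only the groups compared in the fit (adjusted p = 0.0793) and with the replicate number as a block (adjusted p = 0.0606). Fosb had 18.3, 9.99, 16.8 and 12.0 in OE sham hearts, against 10.2, 2.27, 9.94 and 4.54 in WT sham hearts (1.11 ± 0.48, adjusted p = 0.0934). Fos and Junb gave 0.64 ± 0.37 and 0.27 ± 0.19 (adjusted p = 0.214 and 0.317). In injured hearts the comparison of OE MI with WT MI at T2 gave 0 of 10 members in limma, edgeR and DESeq2, where limma called 1.56% of genes tested. At an unadjusted p under 0.05 there were 2 members (Egr3 and Atf3). Egr3 had 24.0, 12.8 and 5.31 in OE MI hearts, against 23.7, 38.1 and 31.4 in WT MI hearts (-1.28 ± 0.41, adjusted p = 0.119). Without OE MI replicate 1 it was -1.76 with adjusted p = 0.0291.

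The EGR genes rose with injury in WT hearts at T2. In WT MI against WT sham hearts, 3 of 10 members rose (Egr1, Egr2 and Egr3) and none fell, where 11.4% of genes tested were called higher and 10.4% lower. Egr3 had 23.7, 38.1 and 31.4 normalized counts in WT MI hearts, against 10.2, 4.53, 4.42 and 6.82 in WT sham hearts. Egr2 had 28.3, 23.1 and 26.5 in WT MI hearts, against 6.80, 10.2, 5.52 and 6.82 in WT sham hearts. Egr1 had 390, 507 and 299 in WT MI hearts, against 228, 131, 238 and 195 in WT sham hearts. Every WT MI heart lay above every WT sham heart for all 3 genes. The log2 fold changes were 2.14 ± 0.38, 1.72 ± 0.34 and 1.01 ± 0.27 for Egr3, Egr2 and Egr1 (limma adjusted p = 2.68e-04, 8.03e-04 and 0.0108). Without WT MI replicate 3, Egr1 was 0.82 with adjusted p = 0.0767. The same count was 3 in edgeR and 4 in DESeq2. Atf3 gave 0.74 ± 0.38 (limma adjusted p = 0.166), and in the authors' deposited table it had a log2 fold change of 1.06 with adjusted p = 0.0408. Fosb was called without WT MI replicate 4 (1.55, adjusted p = 0.0300) and Fosl2 without WT sham replicate 4 (0.37, adjusted p = 0.0334).

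In OE hearts no such rise with injury was seen at T2. In OE MI against OE sham hearts, 0 of 10 members passed in limma, edgeR and DESeq2, where limma called 0.0258% of genes tested. At an unadjusted p under 0.05 there was 1 member (Egr1). Egr1 had 367, 276 and 256 normalized counts in OE MI hearts, against 555, 468, 481 and 419 in OE sham hearts. The log2 fold change of Egr1 was -0.69 ± 0.27 and was not called (limma adjusted p = 0.576). Egr2 and Egr3 gave 0.27 ± 0.34 and -0.44 ± 0.38 (adjusted p = 0.935 and 0.877). For all 3 genes OE sham hearts lay above WT sham hearts. OE MI against WT MI hearts gave -0.40 ± 0.29 for Egr1, -0.18 ± 0.37 for Egr2 and -1.28 ± 0.41 for Egr3 (limma adjusted p = 0.597, 0.880 and 0.119). In the authors' deposited table, OE MI against WT sham hearts gave 0.598 for Egr1, 1.66 for Egr2 and 1.13 for Egr3 (adjusted p = 0.102, 0.00155 and 0.0917).

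The test of the difference between the 2 injury responses at T2 called 2 of 10 members, both lower in OE, where 2.54% of genes tested were called lower. Egr3 differed by -2.58 ± 0.54 (limma adjusted p = 0.0113) and Egr1 by -1.70 ± 0.39 (adjusted p = 0.0155), while Egr2 gave -1.45 ± 0.48 (adjusted p = 0.0763). The Egr1 call was lost without WT MI replicate 3 (-1.51, adjusted p = 0.0608) and without OE MI replicate 3 (-1.65, adjusted p = 0.0607), and the Egr3 call was lost in no leave-one-out fit (-3.05 to -2.06). Of the 8 fibroblast markers, 7 were also called lower in this difference. Their part in the Egr1 and Egr3 results was not tested.

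**Figure D3:**
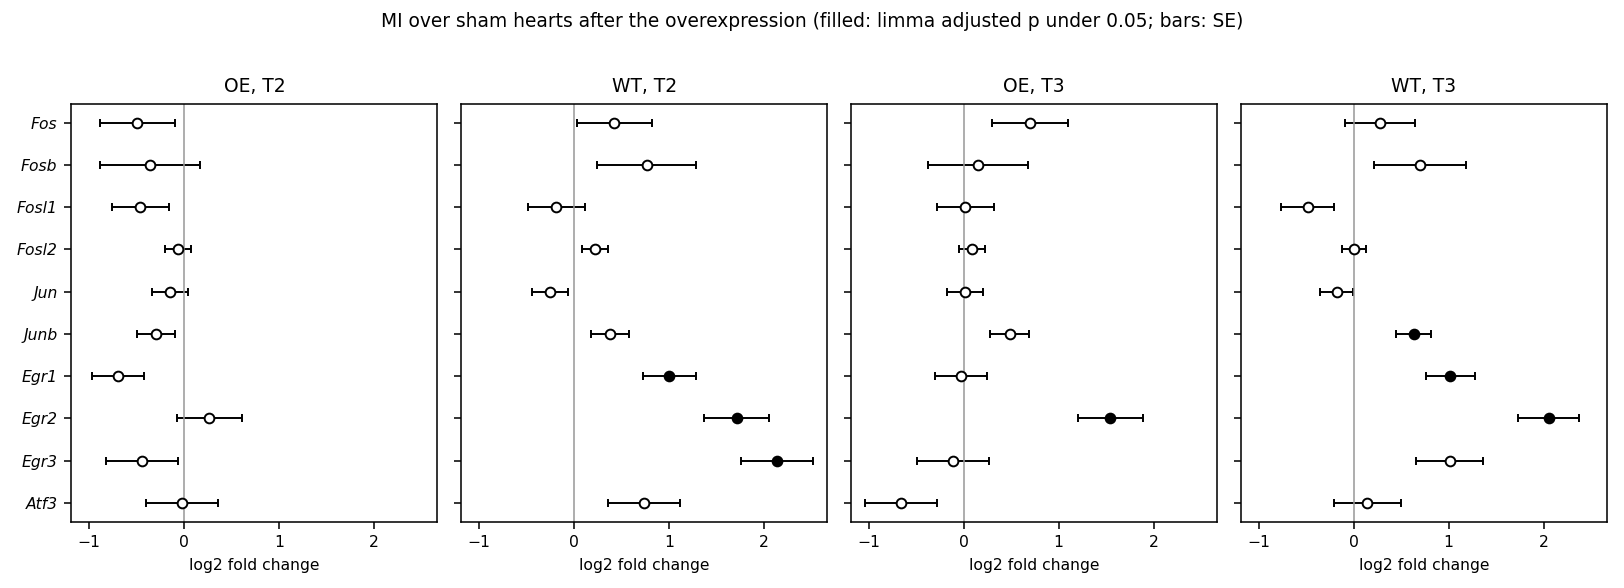
Log2 fold changes of MI over sham hearts for each member (points, with SE bars) at T2 and T3, for OE and for WT hearts; filled points have a limma adjusted p under 0.05. At T2 Egr1, Egr2 and Egr3 are filled in WT hearts and lie between -0.69 and 0.27 in OE hearts.

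In uninjured hearts 4 weeks after overexpression no member was called. In OE sham against WT sham hearts at T3, 0 of 10 members passed in limma, edgeR and DESeq2, where limma called 13.1% of genes tested. At an unadjusted p under 0.05 there were 2 members (Egr1 and Egr3). The 13.1% of all genes passed a stricter threshold than this, so the 2 of 10 are not read as an excess. Egr1 had 283, 194 and 231 normalized counts in OE sham hearts, against 184, 138, 159 and 133 in WT sham hearts. Its log2 fold change was 0.61 ± 0.27 with adjusted p = 0.147, and adjusted p = 0.0200 when only the groups compared entered the fit. Egr3 had 14.3, 13.4 and 12.3 in OE sham hearts, against 5.72, 5.86, 10.9 and 7.15 in WT sham hearts (0.81 ± 0.38, adjusted p = 0.163). Atf3 had 160, 83.9 and 85.1 in OE sham hearts, against 57.2, 77.4, 57.5 and 65.4 in WT sham hearts (0.70 ± 0.38, adjusted p = 0.235). In OE MI against WT MI hearts at T3, 0 of 10 members passed in limma, edgeR and DESeq2, where limma called 3.28% of genes tested. At an unadjusted p under 0.05 there were 0 members.

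The injury response of WT hearts at T3 again included Egr1 and Egr2. In WT MI against WT sham hearts, 3 of 10 members rose (Egr1, Egr2 and Junb), where 8.25% of genes tested were called higher. Egr2 had 27.8, 15.1, 14.1 and 25.3 normalized counts in WT MI hearts, against 5.72, 4.69, 2.98 and 3.07 in WT sham hearts. Junb had 536, 331, 451 and 424 in WT MI hearts, against 269, 216, 314 and 319 in WT sham hearts. Neither gene overlapped between the groups. The log2 fold changes were 2.05 ± 0.32 for Egr2, 1.02 ± 0.25 for Egr1 and 0.63 ± 0.19 for Junb (limma adjusted p = 3.25e-04, 0.00975 and 0.0236). The Junb call was lost, with log2 values of 0.52 to 0.61 and adjusted p of 0.0624 to 0.0965, without WT sham replicate 2 or WT MI replicate 1 or 3. Egr3 gave 1.01 ± 0.35 (adjusted p = 0.0510), and it was called in edgeR and DESeq2 and without WT sham replicate 3 (1.19) or WT MI replicate 2 (1.30). In the same comparison 9 of 9 macrophage and 5 of 8 fibroblast markers rose and 5 of 9 cardiomyocyte markers fell. The summed macrophage markers were 8390 to 12390 in WT MI hearts and 4763 to 6927 in WT sham hearts, and the part of these markers in the members' results was not tested.

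In OE hearts at T3 Egr2 alone was called with injury. That is 1 of 10 members, near the background, as 11.1% of genes tested were called higher. Egr2 had 25.5, 12.9, 12.8 and 9.92 normalized counts in OE MI hearts, against 7.17, 4.48 and 2.24 in OE sham hearts. The groups did not overlap (log2 fold change 1.54 ± 0.34, limma adjusted p = 0.00320), but the OE sham values rest on 6, 4 and 2 reads. Junb averaged 335 ± 58.2 in OE MI hearts (SD, n = 4) and 237 ± 3.90 in OE sham hearts (SD, n = 3), a log2 fold change of 0.48 ± 0.20 with adjusted p = 0.0928. Of the markers, 7 of 9 for macrophages and 7 of 8 for fibroblasts rose there and 4 of 9 for cardiomyocytes fell, and their part in the Egr2 result was not tested. Egr1 had 303, 296, 207 and 147 in OE MI hearts, against 283, 194 and 231 in OE sham hearts, with overlap (-0.03 ± 0.27, adjusted p = 0.956). The difference between the genotypes' injury responses at T3 gave 0 of 10 members in limma, edgeR and DESeq2, where limma called 0.00644% of genes tested. At an unadjusted p under 0.05 there were 2 members (Egr1 and Egr3). Egr1 gave -1.05 ± 0.37 (adjusted p = 0.302).

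Several members were lower at T3 than at T2 in uninjured OE hearts. In OE sham T3 against OE sham T2 hearts, 5 of 10 members fell (Fos, Fosl2, Junb, Egr1 and Egr2) and 1 rose (Atf3), where 15.1% of genes tested were called lower and 15.8% higher. Fos had 21.5, 28.0 and 23.5 normalized counts at T3, against 84.7, 47.2, 104 and 62.4 at T2. Junb had 233, 236 and 241 at T3, against 386, 438, 408 and 335 at T2. No T3 heart overlapped the T2 hearts for either gene. The log2 fold changes were -1.90 ± 0.34 for Egr2, -1.52 ± 0.40 for Fos, -1.03 ± 0.27 for Egr1, -0.72 ± 0.20 for Junb and -0.57 ± 0.13 for Fosl2 (limma adjusted p of 1.94e-04 to 0.00899). Atf3 rose by 1.06 ± 0.38 (adjusted p = 0.0361). That call was lost, with log2 values of 0.75 to 1.08 and adjusted p of 0.0576 to 0.201, without OE sham T2 replicate 1, 2 or 4 or OE sham T3 replicate 1. It was also lost with library totals (0.89, adjusted p = 0.0993) and with the replicate number as a block (1.05, adjusted p = 0.0504). In the same comparison 6 of 8 fibroblast markers fell and 7 of 13 heat shock genes rose, and their part in the members' results was not tested. Egr3 gave -0.29 ± 0.38 and averaged 13.4 ± 1.01 at T3 (SD, n = 3) and 16.7 ± 1.99 at T2 (SD, n = 4).

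In the other 3 groups the change between T2 and T3 gave 0 of 10 members in limma, edgeR and DESeq2. In OE MI, WT sham and WT MI hearts limma called 0.283%, 0.341% and 0.00644% of genes tested. At an unadjusted p under 0.05 there was 1 member in OE MI hearts (Fosl2), 1 in WT sham hearts (Egr2) and 2 in WT MI hearts (Fosl2 and Egr3). Whether the OE over WT difference itself changed between T2 and T3 was tested directly. In sham hearts it gave 0 members in limma, edgeR and DESeq2, where limma called 12.3% of genes tested. At an unadjusted p under 0.05 there were 2 members in sham hearts (Fosl2 and Egr2). Fosl2 was called there, at -0.65 with adjusted p = 0.0130, without WT sham T2 replicate 4. In MI hearts the same test gave 0 members in the 3 tools, where limma called 0% of genes tested. It also gave 0 members at an unadjusted p under 0.05. The fall in uninjured OE hearts was therefore not shown to differ from the change in WT hearts.

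Other genes of the same pathway were taken from lists that were put together with earlier results of these data known. In OE sham against WT sham hearts at T1, 12 of 22 other immediate early genes rose and none fell, among them Ier2 (1.16 ± 0.22), the proto-oncogene Myc (1.32 ± 0.30) and the zinc finger gene Klf10 (0.88 ± 0.17). Among 15 AP-1 partners and dimer competitors 5 rose and none fell, led by the small Maf gene Mafk (1.20 ± 0.21) and the stress response factor Atf4 (0.77 ± 0.17). Of 15 EGR corepressors and AP-1 or EGR target genes 9 rose and 2 fell, with the corepressor Nab2 at 2.54 ± 0.30, the cell cycle gene Ccnd1 at 1.35 ± 0.16 and the cytokine gene Tgfb1 at 1.20 ± 0.15. Of 17 upstream kinases and promoter factors 7 rose and 3 fell, with the JNK gene Mapk10 at -1.96 ± 0.26 and the ERK5 gene Mapk7 at 0.60 ± 0.10 (limma adjusted p under 0.05 for each gene named). Of all genes tested, 24.0% were called higher and 23.3% lower in this comparison. The median log2 fold change was 0.73 over the other immediate early genes, 0.08 over the partners, 1.20 over the corepressors and targets and 0.10 over the kinases and promoter factors, against 0.01 over all genes tested.

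In OE MI against WT MI hearts at T1 the counts were 3 higher of 22 other immediate early genes (Ier2, Nr4a1 and Arc), 4 of 15 partners and 8 of 15 corepressors and targets, with 1 target lower. Over all genes tested 14.7% were called higher, so that the count of other immediate early genes was near the background. Nab2 rose by 1.80 ± 0.30 on the log2 scale there. In WT MI against WT sham hearts at T2, 11.4% of genes tested were called higher and 10.4% lower. There 3 of the 22 other immediate early genes rose, near that background, and 1 (Sgk1) fell, while 7 of 15 corepressors and targets rose. Those included Timp1 (3.15 ± 0.35), a metalloproteinase inhibitor, Spp1 (3.84 ± 0.53), which encodes osteopontin, and the hyaluronan receptor gene Cd44 (1.26 ± 0.23). In OE sham against WT sham hearts at T3, 3 of the other immediate early genes fell and none rose, with Ier3 at -0.71 ± 0.18, Maff at -0.56 ± 0.18 and Klf6 at -0.36 ± 0.11. There 13.1% of genes tested were called in either direction, so that 3 of 22 was near the background of both directions together. In OE sham hearts, 11 of the 22 fell and none rose at T3 against T2, where 15.1% of genes tested were called lower.

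Markers of other cells moved in the same comparisons. Of the 8 fibroblast markers 7 rose in OE sham against WT sham hearts at T1, 6 in OE MI against WT MI hearts at T1, 7 in OE sham against WT sham hearts at T2 and 8 in WT MI against WT sham hearts at T2. Over all genes tested 24.0%, 14.7%, 11.8% and 11.4% were called higher in these comparisons. In OE sham hearts at T3 against T2, 6 of the 8 fibroblast markers fell, where 15.1% of genes tested were called lower. Their summed normalized counts at T1 were 118000 to 145200 in OE sham hearts and 26200 to 29960 in WT sham hearts, and no fibroblast marker was at 0 throughout a group. Of 9 macrophage markers 7 rose and of 9 cardiomyocyte markers 7 fell in OE sham against WT sham hearts at T1, with macrophage sums of 8373 to 10800 in OE sham hearts and 6298 to 7945 in WT sham hearts. Cardiomyocyte sums were 665400 to 791600 in OE sham hearts and 1015000 to 1172000 in WT sham hearts. Over all genes tested 24.0% were called higher and 23.3% lower there. In the same comparison 5 of 5 erythroid markers fell, and of 7 mural cell markers 2 rose and 2 fell. Falls were also called for 2 of 5 epicardium, 2 of 7 endothelium and 1 of 4 Schwann cell markers. In OE MI against WT MI hearts at T1, 0 of 9 macrophage markers were called and 6 of 9 cardiomyocyte markers fell. The part of these markers in the members' results was not tested.

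Of 13 heat shock genes 2 rose and 2 fell in OE sham against WT sham hearts at T1, with Hsp90aa1 at 0.99 ± 0.25 and Hspd1 at -0.79 ± 0.12. Of 16 clock genes 1 rose (Bhlhe40, 0.53 ± 0.16) and 3 fell, led by Ciart at -1.45 ± 0.36. Over all genes tested 24.0% were called higher and 23.3% lower, above the share of either list in both directions. Their part in the members' results was not tested either.

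Within groups the members varied together at T1. The deviations of each library from its group mean were correlated for the 45 pairs of members, with libraries permuted within groups. Over the 16 T1 libraries Pearson's r ran between 0.05 and 0.93 with a median of 0.67, and 29 of 45 pairs had an adjusted permutation p under 0.05 (28 by Spearman's rho). Fos and Fosb were the closest pair (r = 0.93, adjusted permutation p = 0.0018; rho = 0.92; r = 0.86 without the 2 farthest libraries). Jun and Egr3 were the least alike (r = 0.05, rho = -0.05, adjusted permutation p = 0.882 and 0.860). Without OE sham replicate 4, the lowest OE sham library for all 10 members, 18 pairs passed.

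Over the 29 libraries of T2 and T3 the median r was 0.27, and 2 of 45 pairs passed, Jun with Atf3 (r = 0.72, adjusted permutation p = 4.5e-04; rho = 0.82) and Fos with Egr1 (r = 0.61, adjusted permutation p = 0.0169; rho = 0.61). That number was 1 without WT sham T2 replicate 2 and 4 without WT MI T2 replicate 2, WT sham T3 replicate 1 or WT MI T3 replicate 1. By the same deviations, the 5 genes most like the members' mean in both tables, of 15021 compared over 16 and 29 libraries, were Glipr2, Zyx, Cd44, Arf6 and P4hb. The smaller of the 2 values of r was 0.74 for Glipr2, 0.73 for Zyx, which encodes a focal adhesion protein, 0.72 for Cd44, 0.70 for Arf6 and 0.70 for P4hb. Each member's own r to the mean of the other members ran between 0.55 (Egr3) and 0.90 (Fosb) at T1. Over T2 and T3 it ran between 0.24 (Egr3) and 0.70 (Egr1). Correlation within other sets of genes was not computed.

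**Figure D4:**
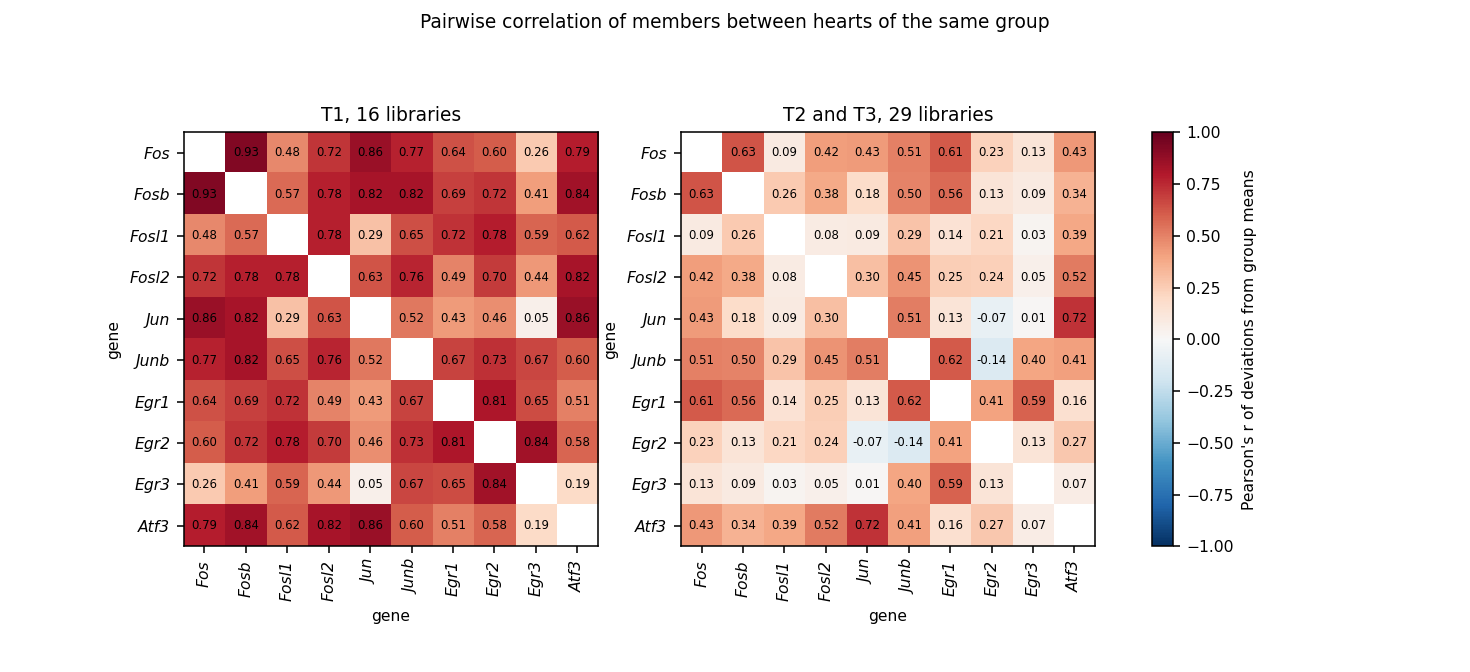
Pearson's r between each pair of members over deviations from group means, for the 16 T1 libraries (left) and the 29 libraries of T2 and T3 (right), on a colour scale of -1 to 1. All 45 pairs are above 0 at T1, with a median of 0.67, against a median of 0.27 later.

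The level of Erbb2 varied among the 8 OE hearts at T1, and its relation to each of the 10 members was computed after seeing the data. Egr1 gave r = 0.80 (exact permutation p = 0.0185, adjusted over 10 relations 0.185) and rho = 0.88 (exact permutation p = 0.00724, adjusted 0.0724), with r = 0.90 without the 2 hearts farthest from the median of Erbb2. Without those 2 hearts r was higher for every member, at 0.58 for Fosb up to 0.94 for Fosl1. Neither relation of Egr1 passed after adjustment. The other 9 members gave r of 0.04 to 0.50 with adjusted exact permutation p of 0.682 or more. The permutations moved hearts across OE MI and OE sham, so these p-values do not measure a relation within either arm. With 4 hearts in each of OE MI and OE sham, the relation was not tested within the arms. Within OE sham hearts r ran between -0.47 (Fosl1) and 0.61 (Egr1). It was negative there for Fosb, Fosl1, Fosl2, Junb, Egr2, Egr3 and Atf3. Within OE MI hearts r ran between -1.2e-04 (Jun) and 0.98 (Egr1).

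**Figure D5:**
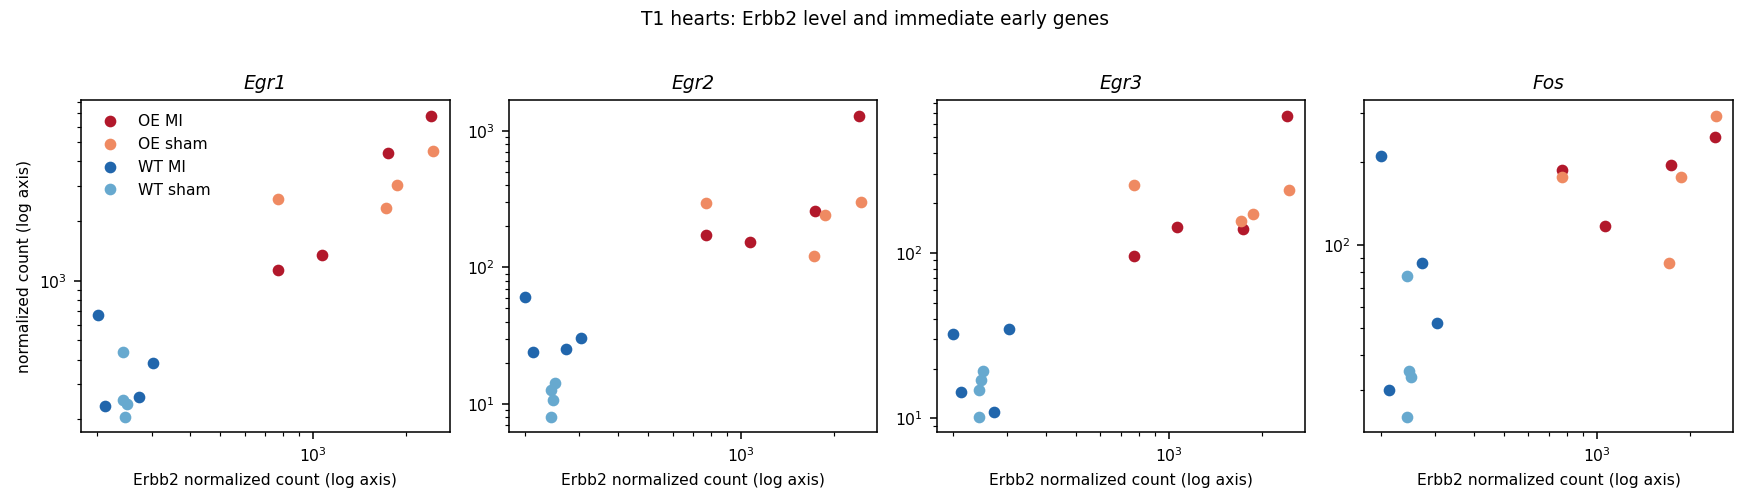
Normalized counts of Egr1, Egr2, Egr3 and Fos against those of Erbb2 in the 16 T1 hearts (both axes log), with 1 point per library. OE hearts lie to the right, at 769 or more for Erbb2, and among them Egr1 runs between 1129 and 6818.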

How the data were processed

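Poly(A) RNA of 45 whole-heart libraries was analysed from 2 deposited tables, one of 16 T1 libraries and one of 29 T2 and T3 libraries. Per the submitters' processing notes, cutadapt, STAR, HTSeq, DESeq2 and GRCm38 were used, and no versions are stated. The deposited values are a normalized signal: whole read counts divided by a factor per library. Reads were recovered from the steps between values, and 100% came out whole within 0.1 read. The deposited largest count per gene, a score rounded by the authors per the file headers and values, equalled the largest recovered count. The authors' deposited log2 fold changes and adjusted p-values are quoted only where named.

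Genes were kept where 4 libraries (T1) or 3 libraries (T2 and T3) reached 10. log2(normalized count + 1) was tested with limma 3.58.1 (trend, robust) in R 4.3.3, all groups of a table in 1 fit, with Benjamini-Hochberg adjustment over all genes tested and a threshold of 0.05. Shares of genes called are at this threshold, and none is given for counts at an unadjusted p. A fold change on this scale understates that of low genes. As alternatives, edgeR 4.0.16 and DESeq2 1.42.0 were run on the recovered reads. Others were a pseudocount of 5, no filter, library totals, TMM, a fit of the compared groups only, a replicate block and each library left out. Scripts were tested on simulated data. The named genes were the 10 members, the 5 genes most like them, up to 3 called genes per list with the smallest adjusted p in 4 comparisons, Erbb2 and the genes that overlap a member. Members and lists were chosen with earlier results of these data known.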

Additional observations from a re-analysis of the deposited data

Results flagged for a closer look

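Over the 10 members in each of the 9 groups of 4 libraries, 90 sets of 4 values were examined. In 6 of them 1 library lay far from the others, and chance gives such a gap in about 5% of sets, so 6 of 90 is near what chance gives. The gaps were judged on normalized counts and not on their log2 values. In OE MI hearts at T1, replicate 4 stood apart for Egr2 (1297 normalized counts, next 259), Egr3 (675, next 144) and Junb (1302, next 718). Without that library Egr2 and Egr3 were still called in OE MI against WT MI hearts. In OE MI hearts at T3, replicate 4 stood apart for Jun (1393, next 943) and replicate 2 for Junb (422, next 311). In WT sham hearts at T3, replicate 1 stood apart for Fosl2 (528, next 461).

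The response to injury differed between OE and WT hearts at T2, by the limma test of the difference itself, for Egr3 (-2.58 on the log2 scale, adjusted p = 0.0113) and Egr1 (-1.70, adjusted p = 0.0155). The Egr1 call was lost without WT MI replicate 3 or OE MI replicate 3 (limma adjusted p = 0.0608 and 0.0607). Between OE MI and WT MI hearts neither gene was called (limma adjusted p = 0.119 for Egr3 and 0.597 for Egr1). In sham hearts OE lay above WT for both (log2 fold change 1.30 for each).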

How the results depend on the processing

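Counts of members called kept within 1.5 times of their value under most alternatives. Scaling to library totals gave 7 members for OE MI against WT MI at T1, 2 for OE MI against OE sham at T3, 1 for the change of the OE over WT sham difference between T3 and T2, and 4 correlated pairs at T2 and T3. Fitting only the groups compared gave 1 for WT MI against WT sham at T1, 1 for OE sham against WT sham at T3 and 3 for OE MI against OE sham at T3. DESeq2 gave 2 for WT MI against WT sham at T1. The cause of these changes was not tested.

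Leaving out each library gave 7 to 9 members for OE sham against WT sham at T1, 4 to 6 for OE MI against WT MI at T1, 0 to 1 for WT MI against WT sham at T1, 3 to 4 for OE sham against WT sham at T2, 0 to 1 for OE MI against WT MI at T2, 2 to 4 for WT MI against WT sham at T2 and at T3, 1 to 2 for the difference of injury responses at T2, 5 to 6 for OE sham T3 against T2 and 0 to 1 for the change of the OE over WT sham difference. Correlated pairs ranged over 18 to 32 at T1 and 1 to 4 at T2 and T3. Directions reversed only for uncalled values. Jun in OE MI against WT MI at T1 was 0.14 with library totals and 0.07 without WT MI replicate 3 and OE MI replicate 4, with a leave-one-out range of -0.31 to 0.091. Atf3 there was -0.12 in edgeR and -0.13 in DESeq2, with a range of -0.24 to 0.78. Egr3 in OE MI against OE sham at T2 ranged over -0.91 to 0.079. Egr1 in OE MI against OE sham at T3 was 0.13 with library totals, 0.028 in edgeR, 0.018 in DESeq2 and 0.035 with the replicate block, with a range of -0.16 to 0.18.

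In none of the compared pairs of groups did every pair of same-numbered libraries correlate above 0.1 in their deviations (-0.114 to 0.0779 between OE sham and OE MI at T1), so the numbers were not taken as pairs. WT MI at T2 and OE MI at T3, which were not compared, gave 0.105 to 0.375. With the replicate block 8 members were called for OE sham against WT sham at T1, 4 for OE MI against WT MI at T1, 3 for OE sham against WT sham at T2, 4 for WT MI against WT sham at T3 and 5 for OE sham T3 against T2. Over all genes, library totals called 7140 genes higher and 1789 lower in OE sham against WT sham at T1, where the fit reported gave 3692 and 3579. They gave 6274 and 1139, against 2256 and 2344, in OE MI against WT MI at T1, 5178 and 763, against 1834 and 2109, in OE sham against WT sham at T2, 2692 and 553, against 1766 and 1613, in WT MI against WT sham at T2, and 676 and 4087, against 2453 and 2343, in OE sham T3 against T2. In WT MI against WT sham at T1 the 891 genes called were 1564 in DESeq2 and 468 with only the groups compared, and in the same arm at T2 3379 were 1616 with only the groups compared. The 767 genes called for the difference of injury responses at T2 were 1230 in DESeq2 and 82 to 1045 with each library left out. Low reads limit Egr2, Egr3 and Fosb at T2 and T3.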
